A study of Mus musculus with 6 samples.

Results

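Ucp1 and its chromosomal neighbour Elmod2 were described in differentiated primary brown adipocytes of wildtype (WT) and Ucp1-KO mice, in every transcript row of the deposited table that carries either symbol. These are 2 of 52089 gene symbols and 17 of 168326 rows, 3 for Ucp1 and 14 for Elmod2. The rows are transcripts of several annotations, 1 RefSeq (NM) and 2 GenBank cDNA (AK) entries for Ucp1, and 2 RefSeq, 4 Ensembl (ENSMUST) and 8 cDNA entries for Elmod2. Both genes were selected on their RPKM values in this same comparison, which were already known, Ucp1 as the gene that is knocked out and Elmod2 as a neighbour that was lower in the knockout. The differences of their levels between genotypes are therefore given without a test.

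The cells came from the stromal-vascular fraction of interscapular BAT (brown adipose tissue) of young male 129SvEvS1 mice and were differentiated in vitro. RNA of 3 independent cultures of WT mice (replicates 10, 11 and 12) and 3 of UCP1(-/-) mice of the same strain (Ucp1-KO, replicates 13, 14 and 15) was read in single stretches of 50 bases. The table gives RPKM, the reads on a transcript scaled to its length in kilobases and to the mapped reads of the culture. Each value was also turned back into the whole number of reads behind it, with totals of 14989604 to 17727653 reads per culture. Per the study, the knockout locus still makes a transcript that lacks exons 2 and 3 and yields no protein, so that reads on Ucp1 in Ucp1-KO cells are not a sign of the protein.

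UCP1 sits in the inner mitochondrial membrane of brown adipocytes, where it lets protons return to the matrix without ATP synthesis and so turns the energy of respiration into heat. Its gene is a marker of brown fat and is switched on by noradrenaline through cAMP, by PPAR gamma and by thyroid hormone. ELMOD2 carries an ELMO domain and is a GTPase-activating protein for the small GTPase ARL2, and it has been found at mitochondria and lipid droplets.

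On GRCm38, Ucp1 lies on the forward strand at chr8:83290352-83298452 and its GENCODE M21 model has 6 exons and 1636 bases. Elmod2 lies downstream of it on the reverse strand at chr8:83312632-83332486, with 9 exons in the models ENSMUST00000053902 and ENSMUST00000177594. The genes run toward each other and do not overlap, as the map of the transcript models shows. Exons 2 and 3 of Ucp1, the part that the knockout transcript lacks, are coding along their whole length and are given from the GRCm38 reference, which is a C57BL/6J sequence. Exon 2 covers chr8:83291402-83291600 and exon 3 covers chr8:83293888-83294088, both on the forward strand.
Ucp1 exon 2: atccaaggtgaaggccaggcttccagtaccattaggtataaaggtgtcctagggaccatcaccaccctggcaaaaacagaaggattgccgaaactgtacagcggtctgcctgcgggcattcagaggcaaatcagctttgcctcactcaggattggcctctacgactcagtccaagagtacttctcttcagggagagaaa
Ucp1 exon 3: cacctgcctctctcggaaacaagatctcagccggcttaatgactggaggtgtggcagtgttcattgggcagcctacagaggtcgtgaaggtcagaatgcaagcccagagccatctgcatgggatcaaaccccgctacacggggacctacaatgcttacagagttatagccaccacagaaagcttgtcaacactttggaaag

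Together these exons hold 400 bases, 24.4% of the model, and this number leaves a remainder of 1 when divided by 3. Joining the end of exon 1 to the start of exon 4 on the reference shifts the reading frame. The joined sequence follows, with 30 bases of each exon, and the first stop codon in the frame of exon 1 is in capitals. It covers the forward strand between chr8:83290679 and chr8:83294212 with everything between the exons left out.
Ucp1 exon 1 joined to exon 4: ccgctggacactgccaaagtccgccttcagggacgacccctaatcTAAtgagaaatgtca
Exon 1 codes for 42 codons, and 5 further codons precede this stop, so that a frame of 47 codons stands in place of the 307 codons of the full reading frame.

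**Figure D1:**
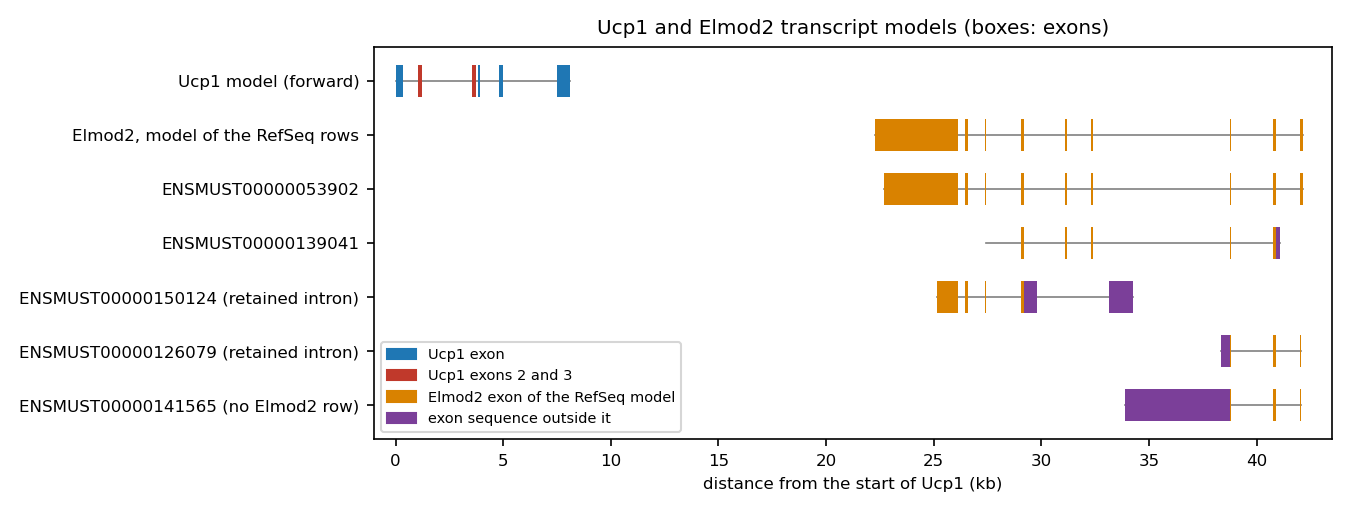
Transcript models of Ucp1 and Elmod2, with distance from the start of Ucp1 in kilobases on the x axis and one model per line. Boxes are exons, with exons 2 and 3 of Ucp1 in red and sequence outside the exons of the RefSeq-like Elmod2 model in violet, which is found in 4 Elmod2 models, one of them without an Elmod2 row in the table.

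Ucp1 RNA was lower in every Ucp1-KO culture than in every WT culture, yet stayed at 307 RPKM or more. The RefSeq row NM_009463 of 1644 bases measured 1775, 981 and 1157 RPKM in WT replicates 10, 11 and 12, and 307, 409 and 398 RPKM in Ucp1-KO replicates 13, 14 and 15. WT replicate 10 stood above the other WT cultures, and the lowest WT culture was still above the highest Ucp1-KO culture. The means were 1304 ± 417 and 371 ± 56.1 RPKM (SD, n = 3 each), so that 28.4% of the WT level remained. On log2(RPKM + 1) the difference, Ucp1-KO minus WT, was -1.78 with a standard error of 0.23 in the limma fit over the whole table. In bulk RNA, fewer expressing cells and less RNA per cell cannot be told apart.

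The reads behind these values numbered 49803, 26922 and 33729 in WT and 8140, 11581 and 9806 in Ucp1-KO cells. Summed per genotype and set against total reads, the Ucp1-KO rate was 28.5% of the WT rate, with an exact 95% interval of 28.1 to 28.8% that covers counting error only. The spread between cultures was far wider than counting error. The coefficient of variation of NM_009463 was 31.9% between WT cultures and 15.1% between Ucp1-KO cultures, where counting alone would give 0.521% and 1.01%.

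The remaining Ucp1 signal in the knockout was present in all 3 annotation rows of the gene and in the same proportion. These rows are not independent, since they share nearly all of their reads. AK076454 differed from NM_009463 by 1 to 8 reads per culture, so the like proportions are 1 observation and not 3. AK076454, whose 1636 bases are the length of the GENCODE model, had a WT mean of 1311 ± 419 RPKM and a Ucp1-KO mean of 373 ± 56.4 RPKM (SD, n = 3 each). AK002759, a shorter entry of 1235 bases, had means of 1681 ± 532 and 478 ± 72.9 RPKM. In both rows 28.4% of the WT level remained, and in 3 of 3 Ucp1 rows all Ucp1-KO cultures were below all WT cultures. Of the 95358 rows tested in the whole table, 4.61% had all Ucp1-KO cultures below all WT cultures.

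The higher RPKM of AK002759 comes with a smaller length and nearly the same reads, because the rows share the reads of their common sequence. It is 409 bases shorter than NM_009463. The reads that NM_009463 had beyond AK002759 were 1694, 805 and 992 in WT and 274, 385 and 280 in Ucp1-KO cells. They made up 2.94 to 3.4% of the reads of NM_009463 in WT cultures and 2.86 to 3.37% in Ucp1-KO cultures. These shares overlapped between genotypes, and the difference in length was 24.9% of NM_009463. If AK002759 lies wholly within NM_009463, the bases outside it were sparsely read in both genotypes. This was not checked, since the cDNA rows came without coordinates. Since each row is a whole transcript, the table does not show which exons of Ucp1 the reads of Ucp1-KO cells fell on.

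RPKM divides by the full transcript length, also where part of the transcript is missing. With the 400 bases of exons 2 and 3 left out of the length, the Ucp1-KO values of NM_009463 became 405, 540 and 526 RPKM. Their mean of 490 ± 74.1 RPKM (SD, n = 3) was 37.6% of the WT mean, and the share for AK076454 was the same. All Ucp1-KO values stayed below the lowest WT culture on this scale as well.

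**Figure D2:**
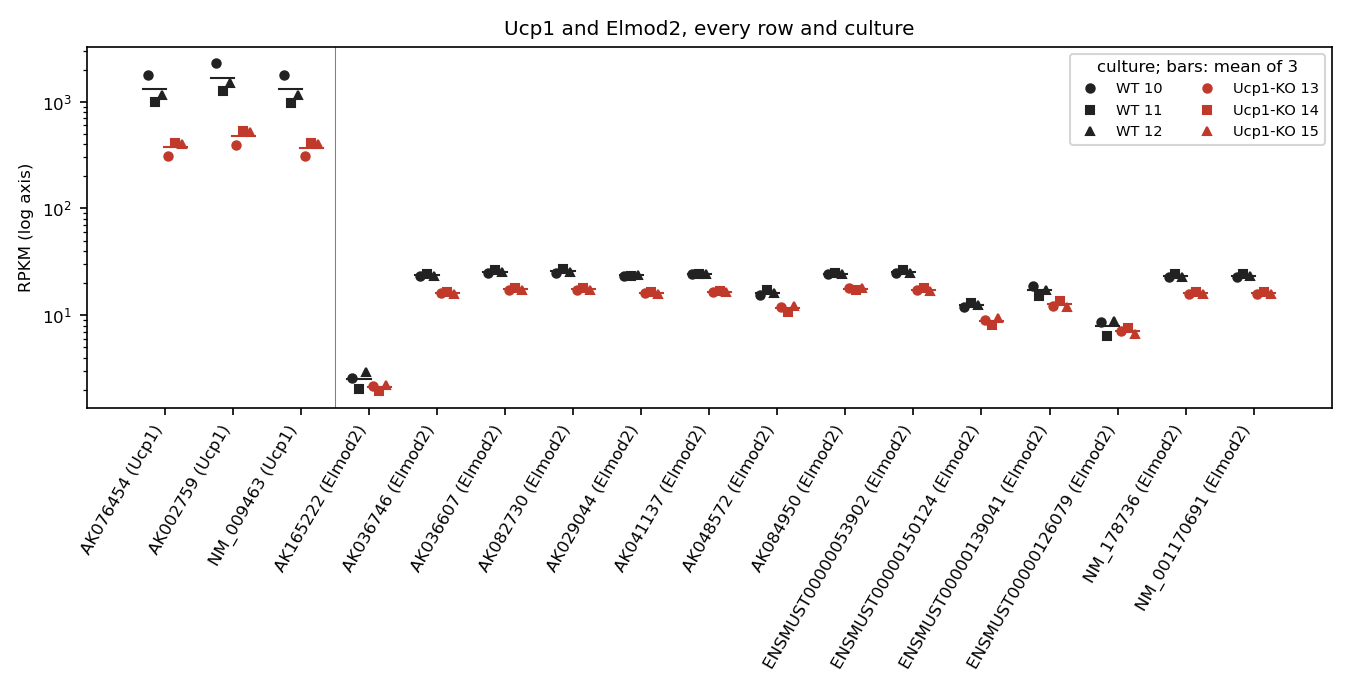
RPKM on a log axis of the 3 Ucp1 rows and the 14 Elmod2 rows on the x axis, with one point per culture (WT black, Ucp1-KO red) and a bar at each mean of 3 cultures. Ucp1-KO cultures lie below all WT cultures in each Ucp1 row and in 12 of the Elmod2 rows, and they overlap with WT in ENSMUST00000126079 and AK165222.

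Elmod2 was expressed at a small part of the level of Ucp1 and was also lower in Ucp1-KO cells, with little variation between cultures. The RefSeq row NM_178736 of 4709 bases measured 22.9, 24.1 and 23 RPKM in WT and 15.8, 16.4 and 15.6 RPKM in Ucp1-KO cells. The cultures of each genotype lay close together and the genotypes did not overlap. The means were 23.4 ± 0.669 and 16.0 ± 0.412 RPKM (SD, n = 3 each), which leaves 68.4% of the WT level and a difference of -0.52 on log2(RPKM + 1) with a standard error of 0.09.

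NM_178736 rested on 1842, 1896 and 1922 reads in WT and on 1205, 1333 and 1103 reads in Ucp1-KO cells. The read rate of Ucp1-KO cells was 68.5% of that of WT cells, with an exact 95% interval of 65.7 to 71.4% for counting error. Here the spread between cultures was near that from counting, 2.87% against 2.30% in WT and 2.58% against 2.87% in Ucp1-KO cells.

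The ratio of Ucp1 to Elmod2, both in RPKM of the RefSeq rows, was 77.4, 40.7 and 50.3 in WT and 19.3, 24.9 and 25.5 in Ucp1-KO cultures. It was lower in every Ucp1-KO culture than in every WT culture, since a smaller share of the WT level remained for Ucp1 than for Elmod2. Within WT cells the order of the cultures differed between the genes, replicate 10 being highest for Ucp1 and replicate 11 for Elmod2. Within Ucp1-KO cells replicate 14 was highest for both.

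Across the 14 Elmod2 rows, 67.8 to 90.0% of the WT mean remained in Ucp1-KO cells, with a median of 68.7%. All Ucp1-KO cultures were below all WT cultures in 12 rows, an order that 4.61% of all rows had, and the genotypes overlapped in the other 2. None of the 17 rows of both genes had all Ucp1-KO cultures above all WT cultures, which 6.47% of the rows in the table had. The Elmod2 rows are not independent, since most of them share exons and thus reads, and NM_178736 and AK036746 rest on identical reads in all 6 cultures. The highest shares remained in ENSMUST00000126079 and AK165222.

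NM_001170691, the other RefSeq row, has 4704 bases and differed from NM_178736 by at most 1 read in any culture, with means of 23.4 and 16.0 RPKM. The spliced Ensembl row ENSMUST00000053902 of 4319 bases ends 390 bases earlier at the 3' end. It measured 24.8, 26.2 and 25.0 RPKM in WT and 17.2, 17.8 and 17.0 RPKM in Ucp1-KO cells, or 68.6% of WT. Its read rate ratio had an interval of 65.8 to 71.6%. The 390 bases that only the RefSeq row has, 8.28% of its length, held 17, 5 and 11 reads in WT and 3, 5 and 3 reads in Ucp1-KO cells. The RefSeq rows thus stood lower in RPKM because they divide almost the same reads by a longer 3' end.

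The cDNA rows AK036607, AK036746, AK082730, AK029044 and AK041137, of 2825 to 4648 bases, kept 67.8 to 68.8% of the WT level, the lowest being AK082730. AK041137 had the smallest relative spread, with a WT mean of 24.2 ± 0.112 and a Ucp1-KO mean of 16.6 ± 0.214 RPKM (SD, n = 3 each). AK048572 and AK084950, at 2228 and 1856 bases, kept 71.3% and 72.1%. In all 7 of these rows the genotypes did not overlap.

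Of the Ensembl rows, ENSMUST00000139041 and the retained-intron models ENSMUST00000150124 and ENSMUST00000126079 contain sequence outside the exons of the spliced model. This sequence makes up 25.5%, 57.1% and 64.3% of their length. ENSMUST00000126079 runs from exon 3 for 417 bases into the following intron and ends there. A longer model of 5122 bases, which has no Elmod2 row of its own, runs further into the same intron without reaching exon 4. To show where these transcripts part, the 127 bases from the start of exon 3 are given in the direction of transcription (reverse strand, GRCm38), first spliced to exon 4 and then read through into the intron. Exon 3, with 29 bases at chr8:83329112-83329140, is in capitals.
Elmod2 exon 3 joined to exon 4: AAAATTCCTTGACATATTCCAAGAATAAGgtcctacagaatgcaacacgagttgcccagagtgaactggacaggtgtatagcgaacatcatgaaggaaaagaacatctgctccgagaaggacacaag
Elmod2 exon 3 running into intron 3: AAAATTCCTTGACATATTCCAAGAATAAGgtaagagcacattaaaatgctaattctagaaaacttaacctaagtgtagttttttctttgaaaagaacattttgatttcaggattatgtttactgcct
The spliced sequence lies between chr8:83322667 and chr8:83329140, and the read-through sequence covers chr8:83329014-83329140.

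ENSMUST00000126079, with 649 bases and the largest intron share, measured 8.57, 6.37 and 8.78 RPKM in WT and 7.06, 7.60 and 6.68 RPKM in Ucp1-KO cells. All 3 Ucp1-KO cultures lay above WT replicate 11 and below the other WT cultures, and the means of 7.91 ± 1.34 and 7.11 ± 0.461 RPKM (SD, n = 3 each) left 90.0% of WT. It rested on only 95, 69 and 101 reads in WT and 74, 85 and 65 reads in Ucp1-KO cells. The interval of the read rate ratio ran from 75.0 to 108% for counting error and thus reached 100%. The coefficient of variation was 16.9% between WT cultures and 6.48% between Ucp1-KO cultures, where counting alone would give 10.6% and 11.6%.

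AK165222 has 5119 bases, 3 fewer than the longer model that runs into the intron after exon 3. It was the lowest Elmod2 row, with 2.55, 2.05 and 2.93 RPKM in WT and 2.15, 1.94 and 2.22 RPKM in Ucp1-KO cells. The genotypes overlapped, again with WT replicate 11 lowest among WT cultures, and 83.7% of the WT mean remained. Its reads numbered 223, 175 and 266 in WT and 178, 171 and 170 in Ucp1-KO cells, with an interval of 74.0 to 93.5% for the read rate ratio.

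ENSMUST00000150124 starts with an exon of 1133 bases that lies inside the intron after exon 3, keeps sequence of a further intron and includes part of the last exon. It measured 11.9, 13 and 12.3 RPKM in WT and 9.11, 8.10 and 9.33 RPKM in Ucp1-KO cells. The genotypes did not overlap and 71.1% remained. ENSMUST00000139041, of 770 bases, measured 18.9, 15.2 and 17.1 RPKM in WT and 12.3, 13.6 and 11.9 RPKM in Ucp1-KO cells. The genotypes did not overlap here either, and 73.9% remained, with an interval of 65.7 to 83.4% for the read rate ratio.

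**Figure D3:**
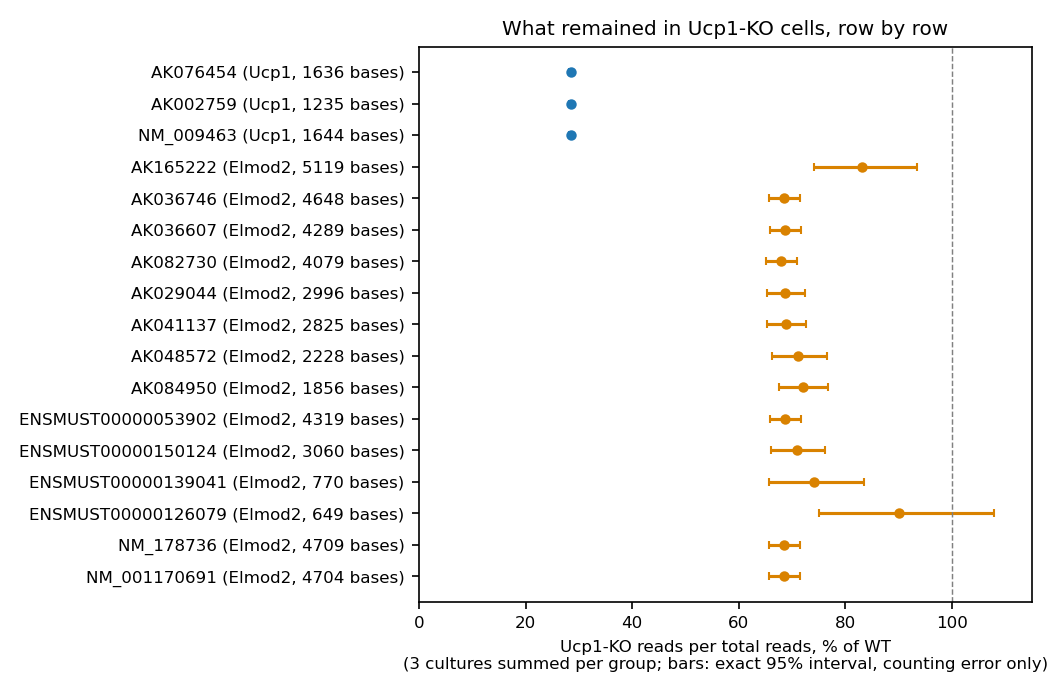
Reads per total reads in Ucp1-KO cells in percent of WT on the x axis, for each row with its length, as the sum of 3 cultures per genotype with exact 95% intervals that cover counting error only. The 3 Ucp1 rows coincide at 28.4 to 28.5%, most Elmod2 rows lie near 68.7%, and the intervals widen for the rows with few reads, of which only that of ENSMUST00000126079 reaches 100%.

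Within a culture, each row can be set against the spliced row, which removes the difference that all Elmod2 rows share. ENSMUST00000126079 stood at 34.6, 24.3 and 35.2% of ENSMUST00000053902 in WT and at 41.0, 42.6 and 39.3% in Ucp1-KO cultures. Every Ucp1-KO culture was above every WT culture, with means of 31.4 ± 6.14 and 41.0 ± 1.64% (SD, n = 3 each), and replicate 11 was far below the other WT cultures. Since this ratio contains the values that chose Elmod2, it has no test, and the share of such ratios with this order over the table was not computed. ENSMUST00000126079 itself overlapped between genotypes, while the spliced row was lower in every Ucp1-KO culture. Counting alone would give the RPKM of ENSMUST00000126079 a coefficient of variation of 10.6% in WT and 11.6% in Ucp1-KO cells.

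The other rows overlapped between genotypes on this scale. ENSMUST00000150124 stood at 48.3, 49.6 and 49.4% in WT and at 52.8, 45.4 and 54.9% in Ucp1-KO cultures. AK165222 stood at 10.3, 7.81 and 11.7% in WT and at 12.5, 10.9 and 13% in Ucp1-KO cultures. ENSMUST00000139041 stood at 76.2, 57.8 and 68.7% in WT and at 71.4, 76.4 and 69.9% in Ucp1-KO cultures. WT replicate 11 was the lowest culture in ENSMUST00000126079, AK165222 and ENSMUST00000139041.

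**Figure D4:**
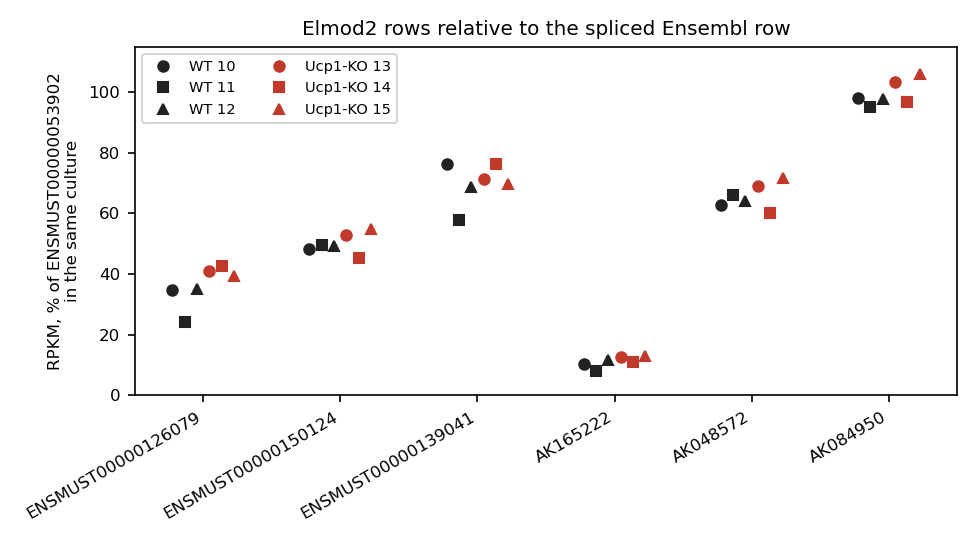
RPKM of 6 Elmod2 rows in percent of the spliced row ENSMUST00000053902 of the same culture on the y axis, one point per culture (WT black, Ucp1-KO red). The genotypes separate for ENSMUST00000126079, at 24.3 to 35.2% in WT and 39.3 to 42.6% in Ucp1-KO cells, and overlap in the other 5 rows. The separation has no test, since the spliced row in the ratio was chosen as lower in Ucp1-KO cells.

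The promoters of both genes are shown because the genes were both lower in Ucp1-KO cells while they start at opposite ends of the locus. Given are the 250 bases before each RefSeq start (GRCm38.p6) in the direction of transcription, chr8:83290098-83290347 on the forward strand for Ucp1 and chr8:83332487-83332736 on the reverse strand for Elmod2. Capitals mark matches to the motifs searched on both strands.
Ucp1 promoter, 250 bases before the start: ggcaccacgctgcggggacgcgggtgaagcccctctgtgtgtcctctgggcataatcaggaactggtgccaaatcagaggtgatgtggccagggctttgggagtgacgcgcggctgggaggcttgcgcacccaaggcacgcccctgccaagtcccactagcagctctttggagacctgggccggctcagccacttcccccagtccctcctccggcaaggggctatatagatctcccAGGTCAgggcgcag
Elmod2 promoter, 250 bases before the start: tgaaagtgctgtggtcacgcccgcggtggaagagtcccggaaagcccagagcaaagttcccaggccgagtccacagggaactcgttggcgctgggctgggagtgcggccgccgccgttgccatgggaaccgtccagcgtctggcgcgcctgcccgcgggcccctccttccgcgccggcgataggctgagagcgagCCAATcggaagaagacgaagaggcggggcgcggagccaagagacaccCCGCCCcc

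Searched were the cAMP response element TGACGTCA, the half-site of nuclear receptors such as PPAR gamma, spelled AGGTCA, and 3 common promoter elements. These are the sequence TATAAA of many core promoters, the sequence CCAAT bound by the factor NF-Y, and the sequence GGGCGG bound by Sp1. None was shared by the 2 promoters. The Ucp1 window held AGGTCA at -14 to -9 from the start, a motif in 14% of 32851 promoter windows of the same length. The Elmod2 window held CCAAT at -55 to -51, found in 33.8% of promoter windows, and GGGCGG on the other strand at -8 to -3, found in 32.7%. TATAAA and TGACGTCA, found in 12.4% and 1.55% of windows, had no match in either. Both windows were rich in GC, 64.8% for Ucp1 and 69.6% for Elmod2 against a median of 52.4%, and they held 12 and 28 CpG dinucleotides against a median of 6. These matches describe the letters of the windows, and no binding or promoter activity was measured.

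To see whether other genes of the neighbourhood differed between genotypes, the 71 annotated genes within 1 Mb of Ucp1 other than Elmod2 were taken. Of these, 34 had a RefSeq row and 25 reached the minimum mean of 0.5 RPKM. None passed limma with Benjamini-Hochberg adjustment over all rows, where the smallest adjusted p of these genes was 0.871, and 0 of 25 had an unadjusted p under 0.05. In the background 0% of the rows were called, the rows of the knocked-out Ucp1 included, so that a gene that did not pass is not thereby shown to be alike in both genotypes. At an unadjusted p under 0.05 there were 5.45% of the rows and 5.46% of the genes. The p-values set the difference between genotypes against the spread between cultures of a genotype, which limma moderates over all rows. Over the 25 genes the median log2 fold change was -0.04, with 16 lower and 9 higher, and over all 12259 genes with a tested RefSeq row it was -0.0026, with 6208 lower and 6051 higher.

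The nearest gene with a RefSeq row upstream of Ucp1, Tbc1d9, which codes for a protein with a TBC domain, measured 2.04, 2.05 and 1.57 RPKM in WT and 1.39, 2.29 and 1.26 RPKM in Ucp1-KO cells, with overlap. The nearest genes with a RefSeq row on the other side of Elmod2, Mgat4d and Clgn, were at or near 0 in all cultures, and Scoc beyond them had a log2 fold change of -0.10 with a standard error of 0.12. The most abundant genes of the window were Ndufb7, a subunit of respiratory complex I, Prkaca, the catalytic subunit of protein kinase A, and Tecr, an enzyme of long-chain fatty acid synthesis. Their means over all cultures were 252, 129 and 118 RPKM, and their log2 fold changes were 0.06, -0.03 and -0.01.

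Of the tested genes of the window, 2 had all Ucp1-KO cultures below all WT cultures, against 5.09% of genes in the background. Rnf150, coding for a RING finger protein, had 2.11, 3.06 and 2.15 RPKM in WT and 1.91, 1.89 and 0.634 RPKM in Ucp1-KO cells. The means were 2.44 ± 0.535 and 1.48 ± 0.729 RPKM (SD, n = 3 each), and the log2 fold change on log2(RPKM + 1), a scale that lessens the fold of such low rows, was -0.51 with a standard error of 0.25. Cc2d1a, a regulator of transcription and signaling, had a log2 fold change of -0.17 with a standard error of 0.11. Only Asf1b, a histone chaperone, had all Ucp1-KO cultures above all WT cultures, which 5.74% of genes had, with 4.62, 4.20 and 3.56 RPKM in WT and 7.28, 5.41 and 4.67 RPKM in Ucp1-KO cells. Podnl1 did not overlap either, but was not tested because its mean was under the minimum.

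**Figure D5:**
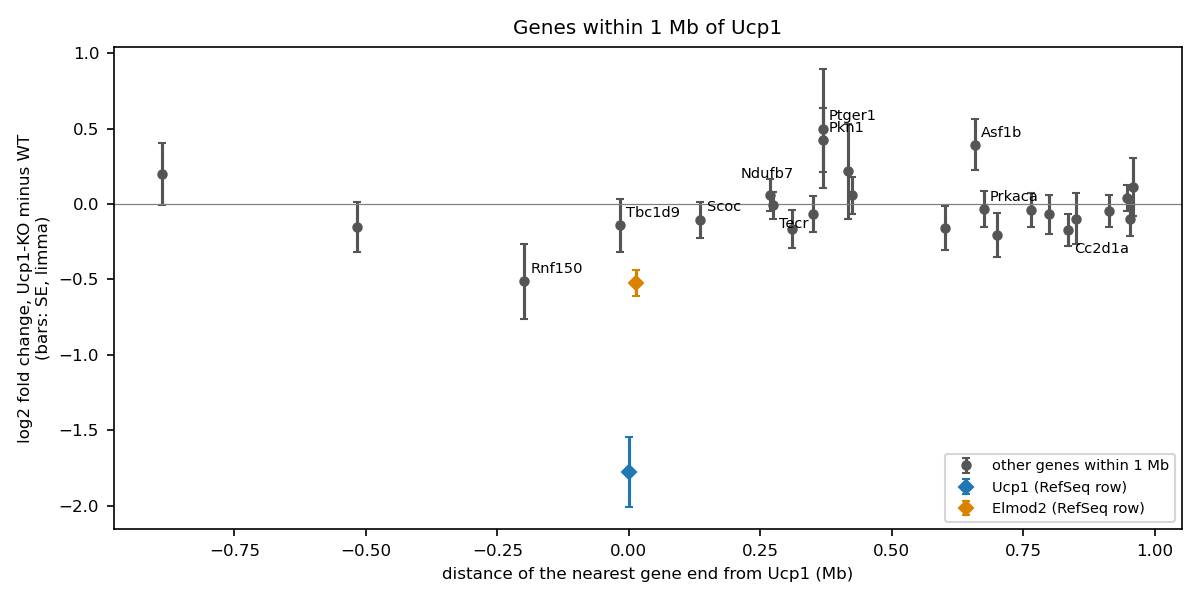
Log2 fold change, Ucp1-KO minus WT, with standard error (limma on log2(RPKM + 1)) on the y axis against distance from Ucp1 in megabases on the x axis, for 25 tested genes within 1 Mb (grey) and the RefSeq rows of Ucp1 (blue) and Elmod2 (orange). The grey points spread from -0.51 to 0.50 around 0 and the nearest, Tbc1d9 and Scoc, lie at -0.14 and -0.10.

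The ELMOD and ARL2 list holds 23 genes of the family and pathway of ELMOD2, of which 22 were tested. No member passed the test and none had an unadjusted p under 0.05. The median log2 fold change was -0.05, with a range of -0.31 to 0.12, and 16 were lower and 6 higher, beside 6208 lower and 6051 higher of all genes. Arl2, the GTPase on which ELMOD2 acts, measured 39.9, 53.9 and 50.6 RPKM in WT and 38.5, 45.3 and 53.3 RPKM in Ucp1-KO cells, with full overlap. Of the paralogs, Elmod3 measured 16.0 to 17.2 RPKM in WT and 15.4 to 16.8 RPKM in Ucp1-KO cells, and Elmod1 was listed at 0 in all cultures. The most abundant members were the small GTPases Arf4 and Arf1 and the mitochondrial fusion protein Mfn2, with log2 fold changes of -0.25, -0.05 and 0.01. Of the tested members 1 had all Ucp1-KO cultures below all WT cultures, near the 5.09% of all genes with this order. This was Tbcd, a tubulin-folding cofactor that binds ARL2, at -0.16 with a standard error of 0.12.

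The Ucp1 regulator list holds 24 genes known to act on Ucp1 transcription, all of which were tested. None passed the test, and 2 had an unadjusted p under 0.05 in limma against 5.46% of all genes. The median log2 fold change was 0.13, with 5 lower and 19 higher in Ucp1-KO cells. Irf4, a transcription factor that acts with PGC-1 alpha, had 0.813, 0.576 and 0.831 RPKM in WT and 1.28, 1.61 and 2.32 RPKM in Ucp1-KO cells, with means of 0.740 ± 0.143 and 1.74 ± 0.531 RPKM (SD, n = 3 each). On log2(RPKM + 1), where the added 1 RPKM lessens the fold of a row this low, the difference was 0.64 with a standard error of 0.17 and an adjusted p of 0.871 (limma). The study's own count test on these cultures, by contrast, listed Irf4 as higher and Ucp1 as lower in Ucp1-KO cells. Thrb, a thyroid hormone receptor, had 9.36, 6.29 and 7.58 RPKM in WT and 11.5, 9.02 and 10.2 RPKM in Ucp1-KO cells, with overlap. Of the 24 regulators, 2 had all Ucp1-KO cultures above all WT cultures, Irf4 and Cebpa, and 5.74% of all genes had this order. Cebpa, a transcription factor of adipocyte differentiation, stood at 0.19 with a standard error of 0.10. Pparg and Cebpb, the other abundant regulators, had log2 fold changes of 0.14 and -0.10, and Ppargc1a, coding for PGC-1 alpha, had 0.38 with a standard error of 0.25.

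The cells expressed the markers of brown adipocytes. The summed level of 7 brown markers other than Ucp1 was 1643 to 1838 RPKM in WT and 1637 to 2539 RPKM in Ucp1-KO cultures, with 7 of 7 at a mean of 0.5 RPKM or more over the 6 cultures, and the sum of 5 adipocyte markers was 28060 to 29755 and 28719 to 31281 RPKM. Leptin, a marker of white fat, was the 1 adipocyte marker with a mean under 0.5 RPKM. Markers of other cells were present, with 556 to 980 RPKM in WT and 418 to 707 RPKM in Ucp1-KO cultures for stromal cells (7 of 9 markers at a mean of 0.5 RPKM or more, with Dlk1 and Dpp4 under it). The sums were 2.19 to 27.4 and 5.05 to 12.4 RPKM for endothelial cells (3 of 3), 16.1 to 44.1 and 11.4 to 145 RPKM for macrophages (4 of 4), and 108 to 194 and 30.2 to 158 RPKM for mural cells (3 of 3). Of 4 muscle markers 2 reached a mean of 0.5 RPKM, Myod1 was at or near 0, and the sums were 8.07 to 10.8 and 5.63 to 13.6 RPKM. Of the 9 stromal markers 3 (Pdgfra, Dcn and Dpp4) and of the 3 mural markers 1 (Cspg4) had all Ucp1-KO cultures below all WT cultures, as did 5.09% of all genes, and the others overlapped. Pdgfra measured 19.0 to 22.3 RPKM in WT and 13.2 to 18.8 RPKM in Ucp1-KO cultures, Dcn 55.4 to 92.2 and 34.4 to 47.9 RPKM, and Cspg4 12.6 to 15 and 8.30 to 10.7 RPKM. Dpp4 was near 0 throughout. Ly6a, which overlapped, was highest in Ucp1-KO replicate 14 at 199.7 RPKM. The part of these cells in the lower Ucp1 and Elmod2 levels was not tested. WT replicate 11, the WT culture with the least Ucp1 and the lowest ENSMUST00000126079, had the highest stromal and endothelial sums of all cultures, at 980 and 27.4 RPKM, and the part of these cells in its values was not tested.

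The genes whose RefSeq rows had the most similar pattern to each gene over the 6 cultures are given as a description, by Pearson's r of log2(RPKM + 1). The 6 points fall into 2 genotypes, and within each genotype only 3 cultures set the order. For Ucp1 these were Dennd5a (r = 0.994), Nfe2l3 (r = 0.993), 4932416H05Rik (r = 0.974), Prdm4 (r = 0.973) and Pramef8 (r = 0.970). For Elmod2 they were 4932416H05Rik (r = 0.986), Adc (r = 0.982), Scd2 (r = 0.980), Sdc4 (r = 0.978) and BC022687 (r = 0.974). Scd2, a stearoyl-CoA desaturase, had the highest level among these, 661 ± 11.5 RPKM for WT and 480 ± 28.1 RPKM for Ucp1-KO cells (SD, n = 3 each). Between Ucp1 and Elmod2 themselves r was 0.931 and Spearman's rho was 0.714, the order of the cultures within each genotype being less alike than the genotype difference.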

How the data were processed

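The values used here are the RPKM that the authors deposited for each transcript. They rest on reads with a single place in the mouse genome (build 38), which Genomatix software attributed to annotated transcripts. A column of the table was matched to each of the 6 cultures by its name. The members and gene lists were chosen with earlier results of these data known. The table holds 26277 NM, 2613 NR, 1573 XM, 1291 XR, 48232 ENSMUST and 88340 AK rows. All 17 members passed the minimum mean of 0.5 RPKM, which left 95358 rows.

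Rows were fitted together with limma 3.58.1 in R 4.3.3 on log2(RPKM + 1), by empirical Bayes with an intensity trend and no covariate, with Benjamini-Hochberg adjustment over all 95358 rows and a threshold of 0.05. A fold change on this scale understates that of low rows. The authors' own test was a count test, and the limma-voom alternative on recovered reads comes nearest to it here. A gene of a list was represented by its RefSeq row with the highest mean.

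RPKM is a whole number of reads over length and total, so totals and row lengths were solved for, with a tolerance of 0.03 reads. Of the tested rows, 99.99% (95348) gave whole reads in all cultures. Of 29045 tested Ensembl rows with an annotated length, 92.2% had a fitted length equal to it or a divisor of it, and a divisor or another length would scale the reads of a row. The fitted lengths of the 4 Elmod2 Ensembl rows equal those of their models. On simulated data 6 of 6 totals and 495 of 500 lengths were recovered, and 0 of 500 rows not made of whole reads passed. With 200 of 95358 simulated rows changed 3-fold, limma called 177 rows, 166 of them changed, and with none changed it called 0. The changed rows were drawn from the more abundant rows, and all rows had independent normal noise. Real rows share reads, so these calls do not give the power in the real table, where the Ucp1 rows were not called. Intervals of read rate ratios are exact (Clopper-Pearson, conditional on the summed reads) at 95%. Reads carry no molecular identifiers, so intervals cover counting error only. The libraries are unstranded by kit, so strand could not separate overlapping transcripts, and reads shared between rows count in each.

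Named genes are all Ucp1 and Elmod2 rows, and, of the genes within 1 Mb of Ucp1 and of the ELMOD and ARL2 and Ucp1 regulator lists, those called, those without overlap and the 3 most abundant, and the 5 genes most like each member. Arl2, Elmod1, Elmod3, Thrb, Ppargc1a, Tbc1d9, Mgat4d, Clgn and Scoc were named beyond this rule, after their values were seen, as were the single cell type markers. Alternatives were a constant of 0.1 RPKM, no minimum, RefSeq rows alone, median-of-ratios scaling, limma-voom on recovered reads, gene-level means and sums, medians, Spearman's rho and leaving out each culture. Exon models are from GENCODE M21, genes and promoters from RefSeq GRCm38.p6, in which both members matched. The rest was done in Python 3.11.15 (scipy 1.17.1, pandas 2.3.3, numpy 2.4.6), with figures drawn in matplotlib 3.10.9.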

Additional observations from a re-analysis of the deposited data

How the results depend on the processing

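No paired analysis was possible because the WT and Ucp1-KO cultures share no replicate number. With no minimum abundance, 162 rows passed the limma test instead of 0 (8637 instead of 5193 at an unadjusted p under 0.05), 152 of them with a mean under 0.5 RPKM. With the minimum of 0.5 RPKM, leaving out 1 culture left 0 calls, but the 5193 rows at an unadjusted p under 0.05 became 1996 without WT replicate 11, 2925 without WT replicate 12, 8356 without Ucp1-KO replicate 13 and 8884 without WT replicate 10. The 162 rows included 9 Elmod2 rows, which share reads, and no Ucp1 row, and this call is no support for Elmod2, which was chosen on this contrast. The share of Ucp1 that remained was 34.4% with medians in place of means, and 25.3 to 34.7% when single cultures were left out, lowest without WT replicate 11 and highest without WT replicate 10. The median log2 fold change of the Ucp1 rows was then -1.96 to -1.53 and that of the Elmod2 rows -0.52 to -0.49. With Spearman's rho the median likeness of the genes named for Elmod2 was 0.771 instead of 0.980. Of 173 values of single rows under an alternative, 0 changed direction and 169 moved by less than the spread between cultures, as did 33 of 33 list medians. The small list medians still moved by over 1.5 times, as did the 2 Elmod2 rows whose genotypes overlapped. ENSMUST00000126079 went from -0.125 to -0.067 without WT replicate 10, -0.256 without WT replicate 11 and -0.052 without WT replicate 12. AK165222 went from -0.172 to -0.270 without WT replicate 11 and -0.086 without WT replicate 12. For the genes within 1 Mb the median of -0.04 was -0.07 without WT replicate 10, -0.02 without WT replicate 11 or Ucp1-KO replicate 15 and -0.01 without WT replicate 12. For the ELMOD and ARL2 list the median of -0.05 was -0.10 without WT replicate 10, -0.03 without WT replicate 12 and -0.08 without Ucp1-KO replicate 14. The cause of these shifts was not tested. Depth limits ENSMUST00000126079 most, with 65 to 101 reads per culture, and for Ucp1 the number of cultures limits the precision.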
